A study of Homo sapiens with 6 samples.

Results

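Box C/D small nucleolar RNAs were examined in small RNA libraries of the human line BEAS-2B, bronchial epithelial cells that were immortalised and are widely used as an established line. They were taken as the rows of class snoRNA whose description holds the name SNORD. This gave 101 of 4208 rows that name a feature, and 101 of the 296 rows of the snoRNA class. Each row is an Rfam family, a group of RNAs with a shared sequence and structure, and not always 1 gene: 36 of the 101 families matched more than 1 SNORD gene in the RefSeq list of GRCh38.p14. The control group held 3 libraries of cells given the plasmid pcDNA3.1, and the PRMT1 group held 3 libraries of cells given pcDNA-PRMT1, which carries the arginine methyltransferase PRMT1. Both groups had the plasmid for 48 h. All 6 libraries come from this 1 line with 1 plasmid construct per group. The labels do not say whether replicates were separate cultures, so every p-value here sets a difference against the spread of these libraries alone, and that spread may be technical.

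Box C/D snoRNAs are short nucleolar RNAs, most of them cut out of the introns of host genes, that carry the conserved sequence elements box C near the 5′ end and box D near the 3′ end. They assemble with fibrillarin, NOP56, NOP58 and SNU13. Many base-pair with ribosomal RNA or U6 snRNA to place a ribose methyl group there, a few are needed for cleavage of the ribosomal RNA precursor, and others, such as SNORD115 and SNORD116, have no known target in these RNAs. Fibrillarin is the methylase of the particle, and its arginine-rich region is a known substrate of PRMT1. The libraries give the levels of the guide RNAs. They measure neither fibrillarin, its arginine methylation, PRMT1 itself, nor the ribose methylation of ribosomal RNA, so the over-expression is taken from the labels and was not checked here. The tables give no read lengths, so a whole snoRNA and a fragment of it cannot be told apart.

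The rows that name a feature held 14429534 to 19232589 counts per library, and the 4 rows that name none held another 23.3 to 40.4% of each library's total. Levels are given as CPM, counts scaled to a common library total. Of 7 epithelial miRNAs (the miR-200 family, miR-205-5p and miR-203a-3p), 7 were detected, with a summed level of 3773 to 5290 CPM of the whole library. Nearly all of this sum was miR-200a-3p, miR-200b-3p and miR-429, with 20479 to 60173 counts each per library. The others were low: miR-200c-3p had 487 to 770 counts, miR-141-3p 169 to 371, miR-205-5p 50 to 135 and miR-203a-3p 34 to 64. The liver miRNA miR-122-5p was at 0.334 to 0.791 CPM and 3 pluripotency miRNAs together at 0 to 0.166. The neural pair miR-124-3p and miR-9-5p summed to 91.6 to 146, the endothelial miR-126-3p was at 746 to 1344, 4 blood miRNAs summed to 5.35 to 19.0 and 3 muscle miRNAs to 5.55 to 6.90. PRMT1 library 1 stood apart from the other libraries in the box C/D RNAs, and values without it are given beside the main results.

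The sequences of 7 of the RNAs follow, 5′ to 3′ on the RNA's strand in DNA letters, with box C (TGATGA) and box D (CTGA) in capitals. They were read from the GENCODE 29 transcripts of GRCh38. The first 5 are among the most abundant box C/D RNAs here, and the last 2 are RNAs whose control and PRMT1 libraries did not overlap. The positions are chr17:64146083-64146152, plus strand, in an intron of SNHG25 for SNORD104, and chr20:2656939-2657010, plus strand, in an intron of NOP56 for SNORD57. They are chr19:3982507-3982572, minus strand, in an intron of EEF2 for SNORD37, and chr11:62853663-62853732, minus strand, in an intron of SNHG1 for SNORD30. They are chr3:186784796-186784864, plus strand, in an intron of EIF4A2 for SNORD2, and chrX:136879199-136879271, minus strand, in an intron of RBMX for SNORD61. SNORD126 is at chr14:20326450-20326526, minus strand, in an intron of CCNB1IP1.
SNORD104: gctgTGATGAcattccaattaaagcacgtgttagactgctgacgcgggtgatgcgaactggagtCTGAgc
SNORD57: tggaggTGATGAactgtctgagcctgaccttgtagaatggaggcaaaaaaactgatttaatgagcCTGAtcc
SNORD37: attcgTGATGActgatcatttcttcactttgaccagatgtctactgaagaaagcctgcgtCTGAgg
SNORD30: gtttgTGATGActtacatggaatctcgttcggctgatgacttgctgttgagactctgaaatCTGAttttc
SNORD2: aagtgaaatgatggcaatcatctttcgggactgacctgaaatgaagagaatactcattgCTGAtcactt
SNORD61: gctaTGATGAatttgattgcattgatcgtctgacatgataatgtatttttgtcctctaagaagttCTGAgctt
SNORD126: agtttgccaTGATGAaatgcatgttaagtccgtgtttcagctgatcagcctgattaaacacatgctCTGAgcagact

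The motifs were searched on the RNA's strand, box C within the first 24 and box D within the last 16 nucleotides. Of the 278 GENCODE genes named SNORD, 186 (66.9%) held both exact motifs, as did 177 (72.5%) of the 244 genes matched to the families measured here. Of the 147 genes named SNORA, which are box H/ACA RNAs, 0 held both. In SNORD2 the letters TGATGA were not found in that window.

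Box C/D RNAs were a small share of every library. They took 92804, 81724 and 85268 counts in control libraries 1 to 3, and 42957, 108177 and 84852 counts in PRMT1 libraries 1 to 3. As a share of all counts this was 0.379, 0.326 and 0.355% in the controls and 0.179, 0.420 and 0.354% in the PRMT1 libraries. The 3 controls lay close together, while PRMT1 library 1 was below and PRMT1 library 2 above all of them, so the groups overlapped. The means were 0.353 ± 0.0267% (SD, n = 3) in control and 0.317 ± 0.125% (SD, n = 3) in PRMT1, a difference of -0.0358 percentage points (two-sided exact permutation test, p = 0.8; the smallest p that 3 against 3 allows is 0.1). Without PRMT1 library 1 the difference turned to 0.0336 percentage points.

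**Figure D1:**
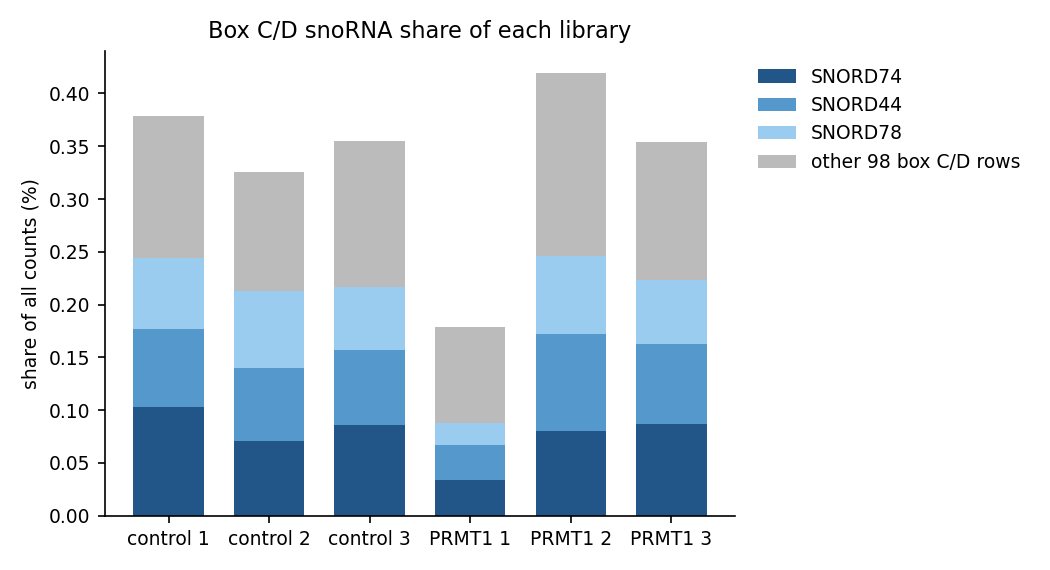
Stacked bars give the share of all counts (%) taken by SNORD74, SNORD44, SNORD78 and the other 98 box C/D rows in each of the 6 libraries. The controls reach 0.326 to 0.379%, PRMT1 library 1 reaches 0.179% and PRMT1 library 2 reaches 0.420%.

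Within the snoRNA class the C/D RNAs held 85.7 to 88.6% of the class counts (86.6 ± 0.361% in control, 87.6 ± 1.64% in PRMT1, SD, n = 3 each; exact permutation test, p = 0.4). The difference was 0.997 percentage points, and 1.94 without PRMT1 library 1. As the C/D RNAs are most of the class, this share moves less than their counts do. Box H/ACA RNAs, the guides of pseudouridylation, held 42.2 to 53.4% of the other counts of the class. The number of C/D counts per H/ACA count was 12.05, 13.06 and 13.01 in the controls and 12.4, 15.5 and 18.4 in the PRMT1 libraries, with overlapping groups (exact permutation test, p = 0.3; this ratio was chosen after its parts had been seen). The means differed by 2.73, and by 4.23 without PRMT1 library 1. With at least 10 counts as detection, 88, 88 and 89 of the 101 C/D RNAs were detected in the controls and 85, 93 and 88 in the PRMT1 libraries (exact permutation test, p = 1). In all, 96 RNAs had a count in every library.

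Over the 6 libraries together, most C/D counts came from 3 RNAs that share a host gene. SNORD74 and SNORD78, which guide methylation of 28S rRNA, and SNORD44, which guides methylation of 18S rRNA, are all encoded in introns of GAS5, a non-coding host gene. SNORD74 has another RefSeq gene outside GAS5, so its counts cannot be credited to GAS5 alone. From here on CPM is relative to the rows that name a feature, after TMM scaling, a correction for the composition of each library. SNORD74 had 1582, 1224 and 1333 CPM in the controls and 488, 1246 and 1362 CPM in the PRMT1 libraries. SNORD44 had 1128, 1212 and 1108 CPM in the controls and 490, 1408 and 1187 CPM in the PRMT1 libraries. SNORD78 had 1036, 1271 and 930.0 CPM in the controls and 306, 1144 and 964 CPM in the PRMT1 libraries. In each of the 3, PRMT1 library 1 was the lowest of the 6 and the other PRMT1 libraries lay within or just above the range of the controls. The log2 fold change of PRMT1 over control was -0.42 (SE 0.40) for SNORD74, -0.16 (SE 0.39) for SNORD44 and -0.42 (SE 0.48) for SNORD78. Without PRMT1 library 1 these values were -0.08, 0.18 and -0.03.

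Together these 3 RNAs held 64.4, 65.3 and 61.04% of the C/D counts in the controls and 49.2, 58.6 and 63.2% in the PRMT1 libraries (63.6 ± 2.26% against 56.98 ± 7.11%, SD, n = 3 each; exact permutation test, p = 0.2). The difference of -6.61 percentage points was -2.72 without PRMT1 library 1. The share of SNORD74 alone was 24.3 ± 2.81% in control and 20.8 ± 3.20% in PRMT1 (exact permutation test, p = 0.3), a difference of -3.51 percentage points and of -2.45 without PRMT1 library 1. Over all libraries, the fewest RNAs needed to reach at least 50% of the C/D counts were 3, with 11 needed for 80% and 24 for 90%. The median C/D RNA had 7.10 CPM.

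**Figure D2:**
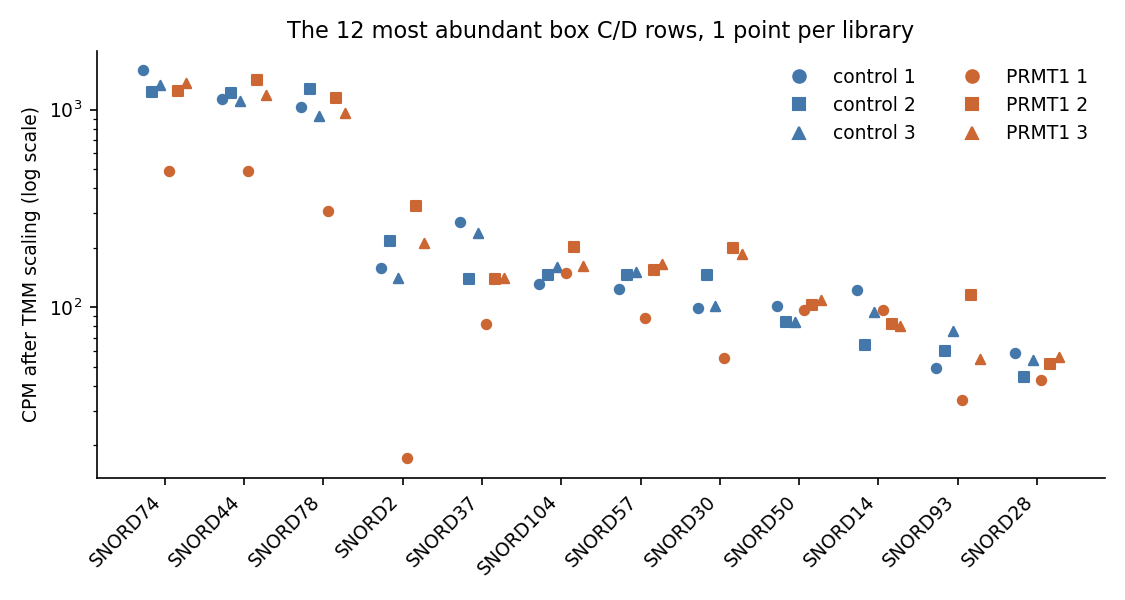
Points give the CPM after TMM scaling (log scale) of the 12 most abundant box C/D rows in each library, in order of their mean. SNORD74, SNORD44 and SNORD78 lie at 930.0 to 1582 CPM in 5 libraries and at 306 to 490 CPM in PRMT1 library 1, and SNORD2 drops to 17.3 CPM there.

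The order of levels was compared per length, as CPM per 100 nucleotides of the median RefSeq length. SNORD44 came first at 1785, then SNORD74 at 1663 and SNORD78 at 1449 CPM per 100 nucleotides, and these neighbours overlapped across libraries. In these means over the libraries, a clear step separated them from SNORD37, in EEF2, at 255, and SNORD2, in EIF4A2, at 254. SNORD104, in SNHG25, was at 198, SNORD57, in NOP56, at 192, and SNORD30, in SNHG1, at 187 CPM per 100 nucleotides. SNORD50, in SNHG5, followed at 132 and SNORD14, in HSPA8 and RPS13, at 102.3. Between single libraries the step was narrower. In CPM not divided by length, SNORD78 fell to 306 in PRMT1 library 1 and SNORD2 reached 324 in PRMT1 library 2.

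RNAs of 1 host gene differed widely in level. In GAS5, SNORD77 had 44.8, SNORD81 25.6, SNORD75 24.1 and SNORD47 18.4 CPM per 100 nucleotides, against 1449 to 1785 for the leading 3. SNORD79, from the same host, had 4, 2 and 5 counts in the controls and 0, 20 and 0 counts in the PRMT1 libraries. The 8 GAS5 families summed to 51.2 to 66.8% of the C/D counts of a library. The 7 families of SNHG1, another non-coding host gene, summed to 3.89 to 6.22% and ran from 187 CPM per 100 nucleotides for SNORD30 to 4.76 for SNORD22. Families with copies outside the host cannot be assigned to 1 locus. These include SNORD74 and SNORD77 for GAS5 and SNORD28 and SNORD31 for SNHG1, with 2 RefSeq genes each.

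Within the PRMT1 group, library 1 tended to be low and library 2 high. Of the 84 C/D RNAs with at least 100 counts over the 6 libraries, 55 were lowest in PRMT1 library 1, 20 of these at under 50% of the lowest other library, and 54 were highest in PRMT1 library 2. Both held for 32 of them. The median deviation from an RNA's own median over the libraries, on the scale log2(CPM + 0.5), was -0.59 in PRMT1 library 1 and 0.39 in PRMT1 library 2, and between -0.06 and 0.08 in the other 4. PRMT1 library 1 was far from uniform: SNORD2 deviated by -3.37, SNORD56 by -2.66, SNORD67 by -2.43, SNORD77 by -2.31 and SNORD52 by -2.11, while SNORD99 deviated by 0.57, SNORD58 by 0.26 and SNORD22 by 0.25.

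**Figure D3:**
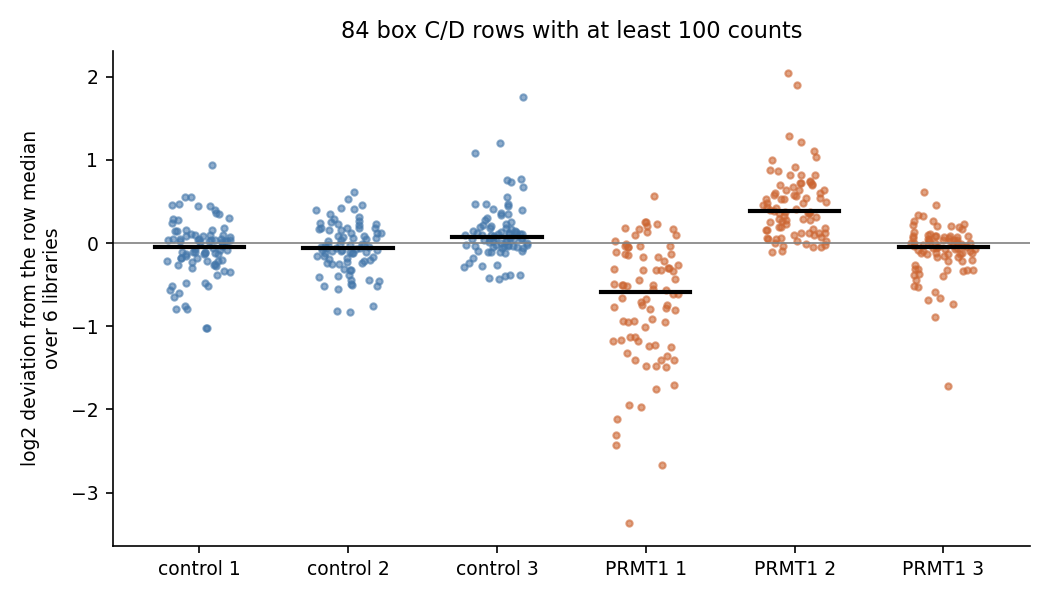
Each point is 1 of the 84 box C/D rows with at least 100 counts, and its height is the log2 deviation, on log2(CPM + 0.5), from that row's median over the 6 libraries; black bars are medians. The median is -0.59 in PRMT1 library 1 and 0.39 in PRMT1 library 2, and the points of PRMT1 library 1 reach down to -3.37.

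The rank order of the 84 RNAs was similar in all libraries. Spearman's rho between libraries was 0.891 to 0.912 for the pairs with PRMT1 library 1 and 0.952 to 0.984 for the other pairs, as a description across RNAs that share a library and its depth. The deviations in PRMT1 library 1 had a Spearman's rho of 0.08 with RNA length and -0.06 with mean CPM (84 RNAs each), and of -0.11 with GC content (78 RNAs with a GENCODE sequence). Other RNA classes were also at their lowest in PRMT1 library 1: rRNA rows took 1.70% of its counts (2.37 to 4.17% in the other libraries), piRNA rows 0.576% (1.25 to 2.44%) and other Rfam rows 0.784% (1.65 to 4.09%). Their part in the low C/D levels was not tested.

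SNORD2, a 28S guide from the translation factor gene EIF4A2, varied most among the 10 most abundant RNAs. It had 159, 216 and 140 CPM in the controls and 17.3, 324 and 210 CPM in the PRMT1 libraries. Its highest and lowest libraries, both of the PRMT1 group, differed 18.8-fold, and the log2 fold change was 0.10 (SE 0.89), 0.64 without PRMT1 library 1 and -0.57 without PRMT1 library 2. SNORD50, a 28S guide, had 101, 84.6 and 83.8 CPM in the controls and 96.5, 102.2 and 108.3 CPM in the PRMT1 libraries, a 1.29-fold range. SNORD104, a 28S guide, had 132, 145 and 160 CPM in the controls and 149, 201 and 162 CPM in the PRMT1 libraries (log2 fold change 0.23, SE 0.23), and PRMT1 library 1 was not low there.

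No box C/D RNA passed the test between PRMT1 and control. In edgeR's quasi-likelihood test with Benjamini-Hochberg adjustment over all 1712 tested features, 0 of the 91 tested C/D RNAs and 0 features (0%) were under 0.05, and the lowest adjusted p of any feature was 0.9997. At an unadjusted p under 0.05 there was 1 C/D RNA, against 60 features (3.5%). limma-voom called 0 of 1712 features (0%), and DESeq2 called 10 of 4196 features (0.238%), 0 of them C/D RNAs. The other 10 C/D RNAs, each with at most 43 counts over the 6 libraries, were not tested. They include SNORD79, SNORD115 and SNORD109A, and SNORD90 and SNORD123 with 1 count each.

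The fold changes lay on both sides of 0. Of the 91 C/D RNAs, 44 had a log2 fold change above 0 and 47 below, with a median of -0.02, and of the 1712 features 860 were above and 852 below, with a median of 0.00. The values ran from -0.84 to 0.77, with a median SE of 0.47. This balance rested on single libraries: without PRMT1 library 1, 68 of the 91 were above 0 and the median was 0.21, and without PRMT1 library 2, 18 were above 0 and the median was -0.38. Scaling by library size alone moved the median of all features to 0.15 and that of the C/D RNAs to 0.13, with 61 of 91 above 0. When only snoRNA rows were fitted, 63 were above 0, and with limma-voom 31. In simulated data made from these libraries for this comparison, with 1544 to 1581 features tested, the test called 2% of features changed by 1 on the log2 scale, 39.6% of those changed by 2 and 87.7% of those changed by 4. Each simulated data set held 200 changed features, which eases the adjusted threshold, and libraries of 1 group shared the same mean levels. The shifts of whole libraries seen here were not simulated. These percentages are thus not the power for a single changed RNA in these libraries. Under the simulated settings a change of 1 on the log2 scale was mostly not called with 3 libraries per group.

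SNORD61, an 18S guide from an intron of the RNA-binding protein gene RBMX, had the smallest unadjusted p. It had 13.6, 16.9 and 14.5 CPM in the controls and 22.8, 29.7 and 23.1 CPM in the PRMT1 libraries, from 217, 244 and 224 counts and 376, 495 and 353 counts. All 3 PRMT1 libraries were above all 3 controls, as they were in 3.56% of all features. The means were 15.02 ± 1.72 and 25.2 ± 3.85 CPM (SD, n = 3 each), and the log2 fold change was 0.75 (SE 0.25; edgeR, unadjusted p = 0.0233, adjusted p over all features 0.9997). The log2 fold change stayed between 0.63 and 0.89 when any 1 library was left out, and under no alternative was it past the adjusted threshold.

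**Figure D4:**
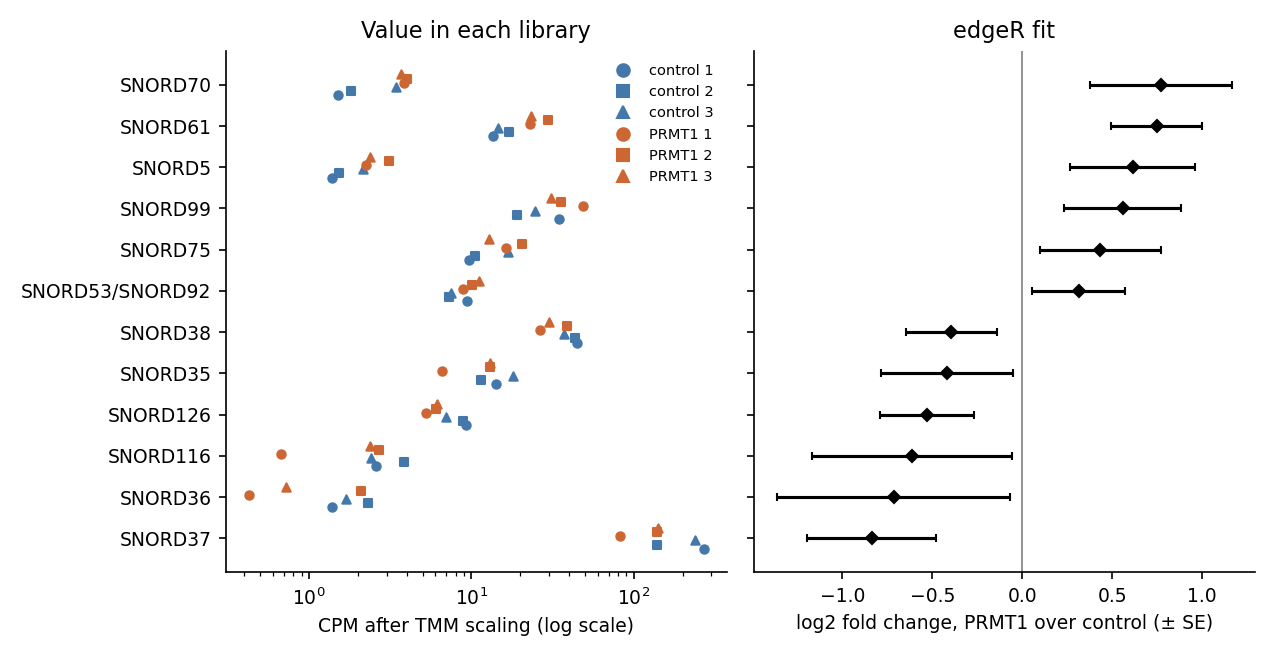
For the 6 box C/D rows of smallest p in each direction, points on the left give the CPM after TMM scaling (log scale) in each library, and diamonds on the right give the edgeR log2 fold change of PRMT1 over control with its SE. SNORD61, SNORD70 and SNORD5 have all PRMT1 libraries above all controls and SNORD126 has all below; no row passes the adjusted threshold.

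SNORD70, an 18S guide from an intron of NOP58, a core protein of the C/D particle, had 1.505, 1.805 and 3.43 CPM in the controls and 3.83, 4.02 and 3.67 CPM in the PRMT1 libraries (log2 fold change 0.77, SE 0.40). SNORD5, from TAF1D, had 1.38, 1.53 and 2.14 CPM in the controls and 2.25, 3.12 and 2.36 CPM in the PRMT1 libraries (log2 fold change 0.61, SE 0.35). In both, the groups did not overlap, on 22 to 67 counts per library. SNORD99, a 28S guide from SNHG12, had 34.4, 19.1 and 24.7 CPM in the controls and 48.6, 35.5 and 31.02 CPM in the PRMT1 libraries (log2 fold change 0.56, SE 0.33, and 0.35 without PRMT1 library 1), with control 1 above PRMT1 library 3. SNORD75, in GAS5 (0.43, SE 0.34), and the SNORD53/SNORD92 family (0.31, SE 0.26) completed the 6 of smallest p on the higher side, and their groups overlapped.

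On the lower side, SNORD37, a 28S guide from an intron of the elongation factor gene EEF2, had 270, 139.8 and 238 CPM in the controls and 82.2, 139.2 and 141 CPM in the PRMT1 libraries. PRMT1 library 1 was the lowest, and control 2 lay between the other 2 PRMT1 libraries. The log2 fold change was -0.84 (SE 0.36; edgeR, unadjusted p = 0.0554), -0.62 without PRMT1 library 1 and -1.07 without control 2. SNORD126, from CCNB1IP1, had 9.28, 8.88 and 6.99 CPM in the controls and 5.23, 6.05 and 6.16 CPM in the PRMT1 libraries, with all 3 PRMT1 libraries below all 3 controls (log2 fold change -0.53, SE 0.26). SNORD38, a 28S guide, had 44.95, 43.2 and 37.1 CPM in the controls and 26.5, 38.7 and 30.03 CPM in the PRMT1 libraries (log2 fold change -0.39, SE 0.25). SNORD35 (-0.42, SE 0.37), SNORD116 (-0.62, SE 0.56) and SNORD36 (-0.72, SE 0.65) also overlapped between groups and had their lowest value in PRMT1 library 1. Without that library their log2 fold changes were -0.16, -0.21 and -0.33.

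The groups did not overlap in 5 of the 91 C/D RNAs, beside 8.29% of all tested features. On the higher side these were SNORD61, SNORD70 and SNORD5 and on the lower side SNORD126 and the SNORD55/SNORD39 family (4.73%). SNORD55/SNORD39, 28S guides named for this count after their values were seen, had 9.28, 10.2 and 9.58 CPM in the controls and 8.33, 8.99 and 8.26 CPM in the PRMT1 libraries (log2 fold change -0.18, SE 0.23).

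The RNAs were then grouped by their target, and 0 members passed the test in any group. Of the 24 tested 18S guides, 10 had a log2 fold change above 0 and 14 below (median -0.04, against 0.00 over all features), and they held 28.4 to 32.3% of the C/D counts, mostly as SNORD44. Scaling by library size alone turned this median to 0.10. SNORD57, an 18S guide from the NOP56 gene, had 123, 146 and 151 CPM in the controls and 87.99, 154 and 166 CPM in the PRMT1 libraries (log2 fold change -0.04, SE 0.31), with PRMT1 library 1 the lowest and PRMT1 library 3 the highest. SNORD93, listed among the 18S guides, had 49.1, 60.1 and 75.5 CPM in the controls and 34.03, 114.8 and 54.6 CPM in the PRMT1 libraries (0.14, SE 0.48).

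Of the 37 families of 28S guides, 35 were tested, 19 above 0 and 16 below (median 0.03), and the list held 59.1 to 65.6% of the C/D counts. The split was 25 above and 10 below with library size alone, but 12 above and 23 below (median -0.11) with limma-voom and 14 above and 21 below (median -0.08) when miRNA rows were left out of the fit. Both rRNA lists had a median of -0.36 or -0.37 without PRMT1 library 2, and of 0.22 or 0.23 without PRMT1 library 1. SNORD30, a 28S guide from SNHG1, had 98.9, 146 and 101 CPM in the controls and 55.2, 200.4 and 186 CPM in the PRMT1 libraries (log2 fold change 0.35, SE 0.50, and 0.74 without PRMT1 library 1), so the PRMT1 libraries lay on both sides of all controls. For the 5.8S guides, the log2 fold change was 0.32 (SE 0.51) for SNORD71 and -0.02 (SE 0.75) for the SNORD96 family, which turned to 0.01 with RLE scaling, the size factors of DESeq2, and to 0.12 with library size alone.

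The U6 snRNA guides were SNORD67, from CKAP5, and SNORD94, from PTCD3. SNORD67 had 16.5, 14.7 and 18.7 CPM in the controls and 2.49, 20.9 and 12.3 CPM in the PRMT1 libraries. Its log2 fold change was -0.48 (SE 0.69) and 0.00 without PRMT1 library 1. SNORD94 had 7.52, 4.37 and 5.63 CPM in the controls and 3.22, 7.43 and 4.07 CPM in the PRMT1 libraries (-0.25, SE 0.42; 0.05 without control 1). Neither separated the groups.

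Of the RNAs for steps other than methylation alone, SNORD14 (U14), needed for processing of 18S rRNA, had 122, 64.2 and 94.5 CPM in the controls and 96.9, 82.3 and 80.3 CPM in the PRMT1 libraries, with all PRMT1 libraries inside the control range (log2 fold change -0.11, SE 0.30). SNORD22 had 5.20, 5.76 and 5.51 CPM in the controls and 6.81, 8.33 and 4.39 CPM in the PRMT1 libraries (0.25, SE 0.32). The processing RNAs U3, U8 and U13 stand in the tables under those names without SNORD and were not among the 101. U3, the most abundant of them, had 1816, 2943 and 1213 counts in the controls and 1365, 1309 and 1658 counts in the PRMT1 libraries (share of all counts, exact permutation test, p = 0.5).

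The imprinted snoRNA clusters took few counts. SNORD116, of the Prader-Willi region on 15q11, which is best known from neurons, had 41, 55 and 37 counts in the controls and 11, 45 and 36 counts in the PRMT1 libraries. SNORD115, of the same region, had 6, 4 and 3 counts in the controls and 6, 3 and 3 counts in the PRMT1 libraries, and was not tested. SNORD64 (log2 fold change 0.28, SE 0.63) and SNORD107 (0.07, SE 0.93) were the other tested members, and the region held 0.0774 to 0.0978% of the C/D counts. The SNORD113/SNORD114 family of 14q32 had 1.94, 2.64 and 5.89 CPM in the controls and 0.547, 6.23 and 1.71 CPM in the PRMT1 libraries, with the PRMT1 libraries on both sides of the controls (-0.30, SE 0.89). These RNAs come from multicopy clusters, with 30 RefSeq genes for SNORD116 and 40 for SNORD113/SNORD114, so the copies could not be separated.

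By host gene, the 7 tested GAS5 families had 2 log2 fold changes above 0 and 5 below (median -0.12), which turned to 5 above and 2 below (median 0.02) with library size alone and to 4 above and 3 below (median 0.11) without PRMT1 library 1. The 7 families of SNHG1 had 4 above and 3 below (median 0.13, and -0.23 without PRMT1 library 2). The 3 families of RPL13A, a ribosomal protein gene, had 0 above and 3 below (median -0.26, and 0.09 without PRMT1 library 1). SNORD33 with SNORD32 was at -0.09 (SE 0.35), SNORD34 at -0.26 (SE 0.69) and SNORD35 at -0.42 (SE 0.37). RNAs of 1 host share a transcript and are not independent of each other.

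The box H/ACA RNAs, fitted in the same table, were more one-sided: 6 of 53 tested rows had a log2 fold change above 0 and 47 below, with a median of -0.43, and 0 passed the test. Their median was -0.28 with library size alone, -0.51 with limma-voom, -0.12 without PRMT1 library 1 and -0.66 without PRMT1 library 2. It stayed below 0 in every setting in which such rows were tested. PRMT1 library 1 had the lowest H/ACA share of all counts (0.0144%, where the other 5 lay at 0.0193 to 0.0315%). The H/ACA share was 0.0279 ± 0.00330% in control and 0.0202 ± 0.00643% in PRMT1 (SD, n = 3 each; exact permutation test, p = 0.2), a difference of -0.00765 percentage points and of -0.00472 without PRMT1 library 1. The difference between C/D and H/ACA RNAs was tested only as the ratio of their counts given above (p = 0.3, exact permutation test).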

How the data were processed

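The deposited tables hold, per the file headers, raw read counts and TPM for each small RNA, with its class and description. The deposited TPM equals CPM of the library total within 0.005, with no length term, and only the deposited counts were tested. The submitters' processing notes name HISAT, Bowtie2, RSEM and GRCh37.p13, with no versions or roles; the protocol in the labels describes mRNA enrichment or rRNA removal, and small RNA library steps are not given in the sources used here. A read shared by families or copies may be counted in any of them.

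A feature was an id with its class and description, and an absent row was a count of 0. The 4 rows that name no gene (exon, intron, repeat, intergenic; 23.3 to 40.4% of a library's counts) were left out of library sizes and tests. The design had included all rows; that fit is an alternative. Counts were filtered with filterByExpr, scaled by TMM and fitted with edgeR 4.0.16 (robust quasi-likelihood, Benjamini-Hochberg threshold 0.05) in R 4.3.3, with PRMT1 against control over all 6 libraries. limma 3.58.1 (voom) and DESeq2 1.42.0 were alternatives. The fit was tested on simulated data. Shares used all counts as the denominator unless snoRNA class counts or C/D counts are named. Group differences in shares, where tested, used a two-sided exact permutation test. Lists were matched by SNORD number. The named RNAs are the 10 of highest mean CPM, the 6 of smallest p in each direction (none passed the threshold) and up to 4 of highest mean CPM from each list; others were named after their values were seen. The members and lists were chosen with earlier results of these data known. RefSeq (GRCh38.p14) gave hosts and lengths (101 of 101 families matched) and GENCODE 29 sequences (93 of 101). A count of 3 corresponds to 0.116 to 0.125 CPM of a library total; RNAs with few counts carry large counting error, and PCR copies are not independent molecules.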

Additional observations from a re-analysis of the deposited data

How the results depend on the processing

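Besides leaving out libraries, 12 alternatives were run, 11 of them planned; the fit with the 4 rows that name no gene was added after the data were seen. The count of box C/D RNAs past the threshold was 0 in every one of them and without each library in turn. Features past the threshold were 10 with DESeq2 and 0 to 1 when a library was left out (1 without PRMT1 replicate 1). The labels do not say whether a replicate number marks a pair, and these values do not settle it. The r of same-numbered deviations was 0.136, 0.285 and 0.0772, and that of the other pairs ran from -0.236 to 0.165. Control 1 correlated best with PRMT1 3, at 0.165, and controls 2 and 3 correlated best with their own number. With the replicate block 0 features and 0 C/D RNAs passed, and the C/D median was -0.10 (28S guides 13 above 0 and 22 below, median -0.11).

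The C/D median was between -0.10 and 0.20 under the 12 alternatives and -0.38 to 0.21 when a library was left out. Expressed as a share of snoRNA class counts the difference was 0.997 percentage points (exact permutation test, p = 0.4), against -0.0358 for the share of all counts, which ran from -0.0868 to 0.0336 when a library was left out. The number of RNAs with at least 1 count differed by -1.33, against 0.333 with at least 10.

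Of 430 values of the 36 named RNAs under these alternatives, 22 changed sign, in 10 RNAs, and 0 passed the threshold; the cause was not tested. With library size alone the log2 fold change was 0.0099 for SNORD44, 0.12 for SNORD57, 0.072 for SNORD28, 0.070 for SNORD77, 0.025 for Z195/SNORD33/SNORD32 and 0.12 for SNORD96. With snoRNA rows only it was 0.030 for SNORD44, 0.23 for SNORD57, 0.29 for SNORD14, 0.27 for SNORD28, 0.19 for Z195/SNORD33/SNORD32 and 0.16 for SNORD96. With limma-voom it was -0.68 for SNORD2, -0.019 for SNORD93 and -0.34 for SNORD107. With the replicate block it was -0.52, -0.029 and -0.35 for the same 3. Without miRNA rows it was -0.076 for SNORD2 and -0.057 for SNORD107. For SNORD96 it was 0.0115 with RLE scaling and 0.0116 with DESeq2.

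When a library was left out, 16 named RNAs changed sign. The ranges were SNORD44 -0.44 to 0.18, SNORD2 -0.57 to 0.64, SNORD57 -0.12 to 0.19, SNORD14 -0.32 to 0.18, SNORD93 -0.46 to 0.46, SNORD28 -0.17 to 0.093, SNORD77 -0.68 to 0.36, SNORD31 -0.27 to 0.47, SNORD26 -0.23 to 0.67, Z195/SNORD33/SNORD32 -0.29 to 0.18, SNORD94 -0.67 to 0.053, SNORD113/SNORD114 -1.62 to 0.41, SNORD71 -0.15 to 0.74, SNORD34 -0.66 to 0.21, SNORD96 -0.29 to 0.42 and SNORD107 -0.99 to 0.54.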

Other observations

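The snoRNA class also held 60 rows of families named for other organisms. They took 435, 451 and 385 counts in control libraries 1 to 3, 546 and 465 counts in PRMT1 libraries 2 and 3, and fewer in PRMT1 library 1, and 26 to 34 of them had a count in a library. The sR52 family among them took 272, 307 and 214 counts in the controls and 23, 358 and 360 in the PRMT1 libraries. PRMT1 library 1 was the lowest in both, as in most of the human C/D RNAs.

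U83, a box C/D RNA listed without the SNORD name, had 26, 26 and 39 counts in the controls and 46, 54 and 45 counts in the PRMT1 libraries, with no overlap between the groups (two-sided exact permutation test on its share of all counts, p = 0.1, the smallest that 3 against 3 allows). It is 1 of 9 such rows and was singled out after its values were seen. All PRMT1 libraries lay above all controls in 3.56% of all tested features, in CPM after TMM scaling. U83B, another of the 9 rows, had 249, 230 and 230 counts in the controls and 134, 266 and 305 counts in the PRMT1 libraries. Its groups overlapped.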
